A study of Mus musculus with 5 samples.

Results

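Mouse mitochondrial DNA encodes 37 RNAs, and all 37 rows of the table whose symbol starts with mt- were taken here, out of 55276 rows in all. They are 13 mRNAs, 2 rRNAs and 22 tRNAs, and the annotation gives exactly these 37 genes on the mitochondrial chromosome. RNA was measured in cells labelled as sorted polymorphonuclear myeloid-derived suppressor cells (PMN-MDSCs), cells of the neutrophil lineage that restrain T cells in tumor-bearing hosts. There were 2 libraries from tumor (numbers 2 and 3) and 3 from lung (numbers 1, 2 and 3). Every library came from wild-type mice, from at least 2000000 sorted cells, and was stated at 20000000 paired reads. The sources used here give no strain, age, tumor model or sort markers, and no number of animals behind a library, so the spread that each p-value rests on may be technical. By its title the study concerns galectin-1, STING activity in tumors and recruitment of these cells in metastasis.

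Mitochondrial DNA is read from both strands into long precursors. The tRNAs lie between most of the other genes, and their excision by RNase P and ELAC2 frees the mRNAs and rRNAs. The 13 mRNAs encode core subunits of respiratory complexes I, III, IV and V, while the 2 rRNAs and 22 tRNAs serve the mitochondrial ribosome that translates them. Mature neutrophils are known for few mitochondria and a metabolism that rests largely on glycolysis.

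Values were TPM, an abundance per transcript length, scaled so that a library sums to 1000000. Read counts cannot be had from TPM, and a rise of some transcripts lowers the share of all others. The 16387 genes that averaged 1 TPM or more were fitted together with limma on log2(TPM + 1). A gene "passed" if it differed by 1.5-fold or more and its Benjamini-Hochberg adjusted p was below 0.05. All adjusted p-values below are limma's. Differences are tumor minus lung on the log2(TPM + 1) scale with ± SE (n = 2 tumor, n = 3 lung). A fold divides the mean TPM of tumor by that of lung.

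The libraries did not carry the cell type label equally. Ptprc, the gene of the pan-leukocyte protein CD45, was at 18.5 and 75.3 TPM in tumor, against 842, 926 and 959 TPM in lung. Of 16 neutrophil markers 16 were lower in tumor (sums of 1240.3 and 4184 TPM in tumor, 39420.1 to 65385 TPM in lung), and of 30 pan-leukocyte markers 30 were lower (977 and 2703 TPM in tumor, 19525 to 20518 TPM in lung). Of 16 epithelial markers 15 were higher in tumor (7046 and 7085 TPM in tumor, 98.8 to 193 TPM in lung), and of 6 fibroblast markers 5 were higher (1193 and 216 TPM in tumor, 14.7 to 21.3 TPM in lung). Of 10 macrophage markers 6 were higher and 3 lower (1184 and 2768 TPM in tumor, 1114 to 1242 TPM in lung). Of 5 further lists, all 8 endothelial, 5 of 6 B cell, 6 of 8 alveolar and airway and 1 of 8 T and NK cell markers were lower, 1 B cell and 1 alveolar and airway marker was higher, and none of 6 erythroid markers passed. Of the 10 lists, only the alveolar and airway list had markers at 0 throughout a group, 2 of them in tumor. These levels move with every difference below, and their part in the results was not tested. In bulk samples fewer cells of a type and less RNA per cell cannot be told apart.

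The sequences that the values turn on show how short and how closely packed these genes are. All positions are in GRCm38, from the GENCODE M21 annotation, and each sequence is written 5′ to 3′ on the strand of its gene. mt-Atp8 (chrM:7766-7969, plus strand), the highest mRNA here, is 204 bases long, and its last 43 bases, in capitals, are also the first 43 of mt-Atp6.
mt-Atp8: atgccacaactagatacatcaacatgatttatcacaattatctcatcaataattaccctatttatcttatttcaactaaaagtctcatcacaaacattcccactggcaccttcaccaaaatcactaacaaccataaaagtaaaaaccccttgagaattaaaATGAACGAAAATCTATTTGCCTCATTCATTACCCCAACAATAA
mt-Ts1 (chrM:6870-6938, minus strand), the serine tRNA that passed as higher, overlaps the end of mt-Co1 on the opposite strand by 3 bases, in capitals.
mt-Ts1: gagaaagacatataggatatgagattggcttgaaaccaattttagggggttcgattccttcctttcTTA
mt-Tp (chrM:15356-15422, minus strand) and mt-Tt (chrM:15289-15355, plus strand), of 67 bases each, are neighbours on opposite strands. mt-Tp had the highest tRNA level in each of the 5 libraries, and mt-Tt was listed at 0 in all lung libraries.
mt-Tp: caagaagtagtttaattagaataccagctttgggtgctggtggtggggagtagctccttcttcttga
mt-Tt: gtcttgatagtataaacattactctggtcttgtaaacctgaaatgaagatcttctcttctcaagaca
mt-Ts2 (chrM:11613-11671) and mt-Tl2 (chrM:11671-11741), both on the plus strand, share a single base, in capitals, and were also at 0 in lung.
mt-Ts2: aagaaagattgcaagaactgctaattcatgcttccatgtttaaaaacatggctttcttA
mt-Tl2: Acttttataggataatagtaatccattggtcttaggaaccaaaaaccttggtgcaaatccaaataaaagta
The tRNAs measure 59 to 75 bases and the mRNAs 204 to 1824 bases. Transcripts shorter than a usual sequenced fragment have uncertain TPM, which touches every tRNA and mt-Atp8. In the annotation 28 genes lie on the plus strand and 9 on the minus strand. Whether quantification used strand is not given in the sources used here, and without strand, reads from a minus-strand gene and from a precursor running across it cannot be told apart.

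Summed over each class, mitochondrial mRNAs and tRNAs took a larger part of TPM in both tumor libraries than in any lung library, and rRNAs a smaller part. The 13 mRNAs together held 8.32% and 13.8% of TPM in the tumor libraries, against 3.36%, 3.66% and 2.15% in the lung libraries. Without mt-Atp8 the other 12 held 3.40% and 5.91% in tumor, against 1.75%, 2.00% and 1.15% in lung. The 2 rRNAs held 0.123% and 0.250% in tumor, against 0.331%, 0.290% and 0.288% in lung. The 22 tRNAs held 0.567% and 1.02% in tumor, against 0.492%, 0.450% and 0.231% in lung, and in tumor library 2 this lay close above the highest lung value. Of these 5671 and 10194 TPM in tumor, mt-Tp held 2939.5 and 6245 TPM and mt-Ts1 1729 and 1911 TPM. The 14 tRNAs of the plus strand, which include neither, overlapped between the groups (363 and 722 TPM in tumor, 409.5, 494 and 266 TPM in lung). Tumor library 3 exceeded tumor library 2 in all 13 mRNAs, and lung library 3 was the lowest of the 5 libraries in all 13.

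**Figure D1:**
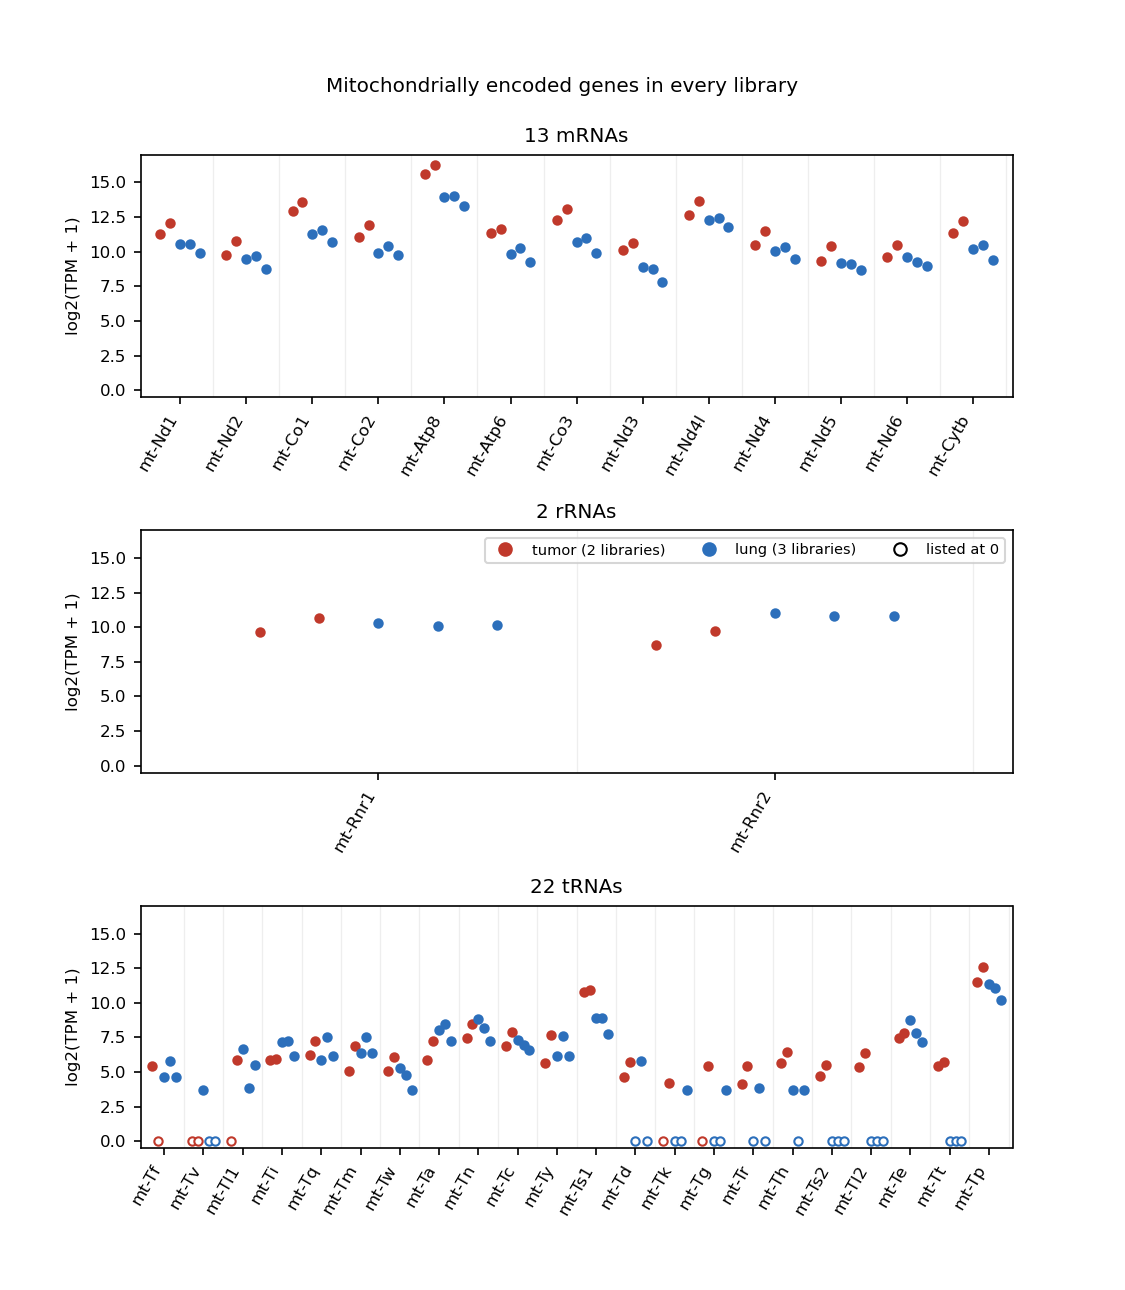
Level of each of the 37 genes, log2(TPM + 1), in 2 tumor (red) and 3 lung libraries (blue); open circles are listed at 0. Both tumor points of each of the 13 mRNAs lie above the lung points, mt-Rnr2 lies below, and 11 of 22 tRNAs are listed at 0 in at least 1 library.

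Each of the 13 mRNAs was higher in both tumor libraries than in any lung library, as were 39.9% of all tested genes (75.6% did not overlap in either direction). Of the 13, 8 passed as higher and 0 as lower, where 31.6% and 27.0% of all tested genes passed, and the median difference was 1.47, against 0.018 over all tested genes. Folds ranged from 1.77 (mt-Nd6) to 4.51 (mt-Atp8). All 6 mRNAs of complexes III, IV and V passed, and 2 of the 7 of complex I.

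The complex IV mRNAs encode the catalytic core of cytochrome c oxidase, the enzyme that passes electrons to oxygen. mt-Co1 (chrM:5328-6872, plus strand), which encodes the subunit that binds the heme-copper centre, was at 7739 and 12263 TPM in tumor, against 2539, 3076 and 1681 TPM in lung. The lowest tumor value was above the highest lung value by a wide margin (difference 2.05 ± 0.35, adjusted p = 0.00653). mt-Co3, a further core subunit, was at 5077 and 8473 TPM in tumor, against 1669.8, 2051 and 974 TPM in lung (2.13 ± 0.41, adjusted p = 0.00911). mt-Co2, whose product takes electrons from cytochrome c, was at 2159 and 3894 TPM in tumor, against 953, 1379 and 869 TPM in lung (1.47 ± 0.35, adjusted p = 0.0174).

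Both mRNAs of complex V, the ATP synthase, passed. mt-Atp6, which encodes the proton channel subunit, was at 2636 and 3261 TPM in tumor, against 922, 1223 and 599.6 TPM in lung (1.74 ± 0.34, adjusted p = 0.00958). mt-Atp8, which encodes a small membrane subunit, was at 49174 and 79331 TPM in tumor, against 16125, 16577.5 and 9994 TPM in lung (2.17 ± 0.36, adjusted p = 0.00575). These 2 reading frames sit on 1 mature mRNA, yet mt-Atp8 stood 18.7 and 24.3 times above mt-Atp6 in tumor and 17.5, 13.6 and 16.7 times above it in lung. The ratio was higher in tumor by 0.43 on the log2 scale, with an exact permutation p of 0.1 (two-sided), the smallest that the 10 splits of 5 libraries allow. The level of mt-Atp8 relative to other genes is therefore uncertain. mt-Cytb, the only mitochondrially encoded subunit of complex III, was at 2614 and 4767 TPM in tumor, against 1162, 1458 and 661 TPM in lung (1.76 ± 0.44, adjusted p = 0.0209).

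Complex I, the NADH dehydrogenase, takes 7 subunits from mitochondrial DNA, all of its membrane arm. mt-Nd3 was at 1099.85 and 1550.4 TPM in tumor, against 470.3, 429 and 224 TPM in lung (1.87 ± 0.39, adjusted p = 0.0114). mt-Nd1 was at 2476 and 4398 TPM in tumor, against 1522, 1528 and 967 TPM in lung (1.33 ± 0.35, adjusted p = 0.0249). The other 5 did not pass, although their groups did not overlap either. mt-Nd4 had 1449.5 and 2845 TPM in tumor and 1062, 1266 and 694 TPM in lung (1.05 ± 0.40, adjusted p = 0.0736). mt-Nd2 had 871 and 1757 TPM in tumor and 724, 807 and 420.0 TPM in lung (0.98 ± 0.43, adjusted p = 0.106). mt-Nd4l had 6439 and 13107 TPM in tumor and 5123, 5606 and 3489.5 TPM in lung (0.98 ± 0.39, adjusted p = 0.0833). mt-Nd5 had 639 and 1337 TPM in tumor and 595, 546 and 401 TPM in lung (0.87 ± 0.38, adjusted p = 0.102). mt-Nd6, the mRNA transcribed from the opposite strand, had 776 and 1443 TPM in tumor and 769, 623 and 489.9 TPM in lung (0.78 ± 0.34, adjusted p = 0.108). In all 5 genes tumor library 2 lay close above the highest lung value, closest in mt-Nd6.

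These calls depended on single libraries and on the filter. Without tumor library 3, which leaves 1 tumor library, mt-Co1 alone of the 13 mRNAs kept its call, at a difference of 1.71. The median difference of the mRNAs was then 1.05, against -0.072 over all tested genes. Without tumor library 2, mt-Atp6, mt-Nd3 and mt-Cytb lost their calls and mt-Nd5 gained one, at a difference of 1.40. The median of the mRNAs was then 1.89, against -0.057 over all tested genes. In both settings fewer of all tested genes passed as well. mt-Co2 was lost without lung library 1 (adjusted p = 0.0503), mt-Nd1 without lung library 2 (adjusted p = 0.0523), and both without lung library 3 (adjusted p-values of 0.0533 and 0.0585). With no filter on low values mt-Atp8, mt-Nd1 and mt-Cytb did not pass (adjusted p-values of 0.143, 0.0688 and 0.0530). By the authors' deposited table, 0 of the 37 members had a false discovery rate under 0.05 (lowest 0.0802, for mt-Ts1), where 0.638% of all rows with a value did. At an unadjusted p under 0.05 the authors' deposited table holds 2 members, mt-Ts1 and mt-Atp6, against 23.0% of all rows.

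**Figure D2:**
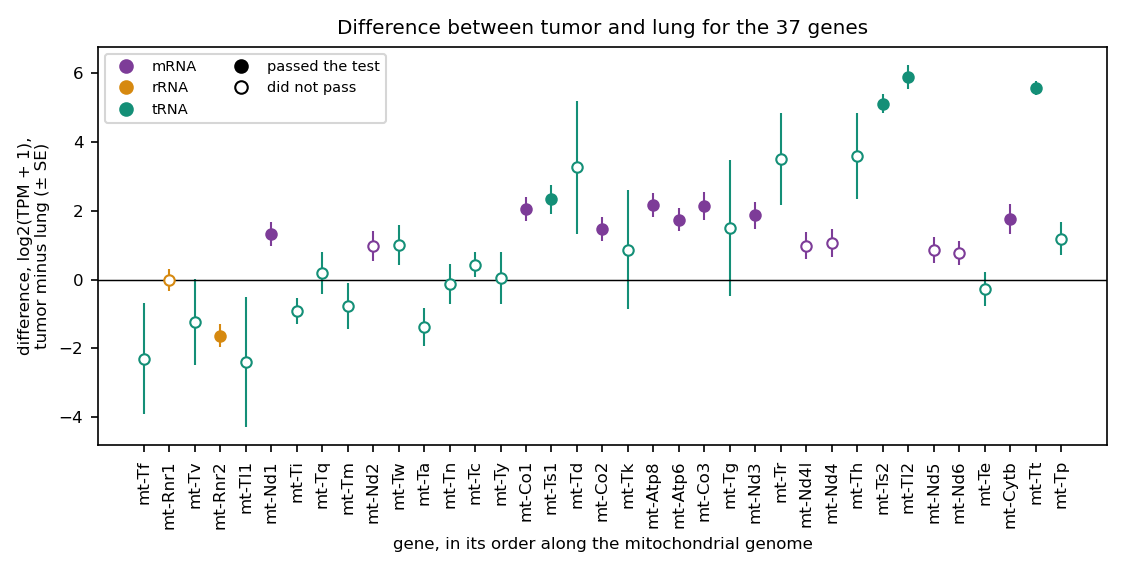
Difference between tumor and lung, log2(TPM + 1) with ± SE, for the 37 genes in their order along the mitochondrial genome; filled points passed. The mRNAs lie between 0.78 and 2.17, mt-Rnr1 at -0.012 and mt-Rnr2 at -1.63, and the tRNAs scatter from -2.41 to 5.89. Centred on pan-leukocyte genes, which moved the median of all tested genes to 3.41, the points below 0 lie above it.

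In these TPM values the rRNAs parted from the mRNAs and from each other. How library preparation treated rRNA was not examined, so the rRNA levels in the cells are uncertain. mt-Rnr1 (chrM:70-1024, plus strand) encodes the 12S rRNA of the small ribosomal subunit and mt-Rnr2 (chrM:1094-2675, plus strand) the 16S rRNA of the large subunit. mt-Rnr2 was at 415 and 865 TPM in tumor, against 2042, 1785 and 1759 TPM in lung. Both tumor values were below every lung value (-1.63 ± 0.34, adjusted p = 0.0118, 2.91-fold lower by mean TPM). With each library left out in turn, the mt-Rnr2 difference stayed between -2.16 and -1.10. Centred on pan-leukocyte genes, which were all lower in tumor, it turned to 1.76 (adjusted p = 0.00605). That centring moved the median of all tested genes from 0.018 to 3.41, so the turn is not particular to mt-Rnr2. mt-Rnr1 was at 818 and 1635 TPM in tumor, against 1272, 1114 and 1119 TPM in lung. The tumor values enclosed the lung values (-0.012 ± 0.32, adjusted p = 0.977).

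A ratio within a library does not move with its scaling. mt-Rnr2 over mt-Rnr1 was 0.507 and 0.529 in tumor, against 1.61, 1.60 and 1.57 in lung. The values were close within each group and -1.62 apart between groups on the log2 scale (exact permutation p = 0.1, two-sided). Leaving out any library kept this difference between -1.65 and -1.59. In the same libraries mt-Co1 over mt-Rnr2, a ratio chosen after the values were seen, was 18.7 and 14.2 in tumor, against 1.24, 1.72 and 0.956 in lung.

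The proportions among the mRNAs differed in value as well. Among 11 mRNAs, leaving out the short mt-Atp8 and mt-Nd4l, mt-Co1 made up 28.1% and 26.7% of the summed TPM in tumor, against 20.5%, 21.4% and 21.1% in lung. mt-Co3 made up 18.4% and 18.4% in tumor, against 13.5%, 14.3% and 12.2% in lung. These shares were higher in both tumor libraries than in any lung library. mt-Nd4 made up 5.26% and 6.19% in tumor, against 8.57%, 8.80% and 8.70% in lung. mt-Nd5 made up 2.32% and 2.91% in tumor, against 4.80%, 3.79% and 5.02% in lung. mt-Nd1, mt-Nd2 and mt-Nd6 were likewise lower in share in both tumor libraries, while the shares of mt-Co2, mt-Atp6, mt-Nd3 and mt-Cytb overlapped between the groups. The shares within a library are not independent of each other, and they were not tested.

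Ratios within 2 pairs of overlapping genes lay in the same range in both groups. mt-Nd4l over mt-Nd4, whose reading frames overlap by 7 bases, was 4.44 and 4.61 in tumor, against 4.82, 4.43 and 5.03 in lung (log2 difference -0.071, exact permutation p = 0.5, two-sided). mt-Nd6 over mt-Nd5, genes on opposite strands that overlap by 14 bases, was 1.21 and 1.08 in tumor, against 1.29, 1.14 and 1.22 in lung (log2 difference -0.088, exact permutation p = 0.4, two-sided). In both pairs the groups overlapped, which with 10 splits does not show that the ratios are equal.

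**Figure D3:**
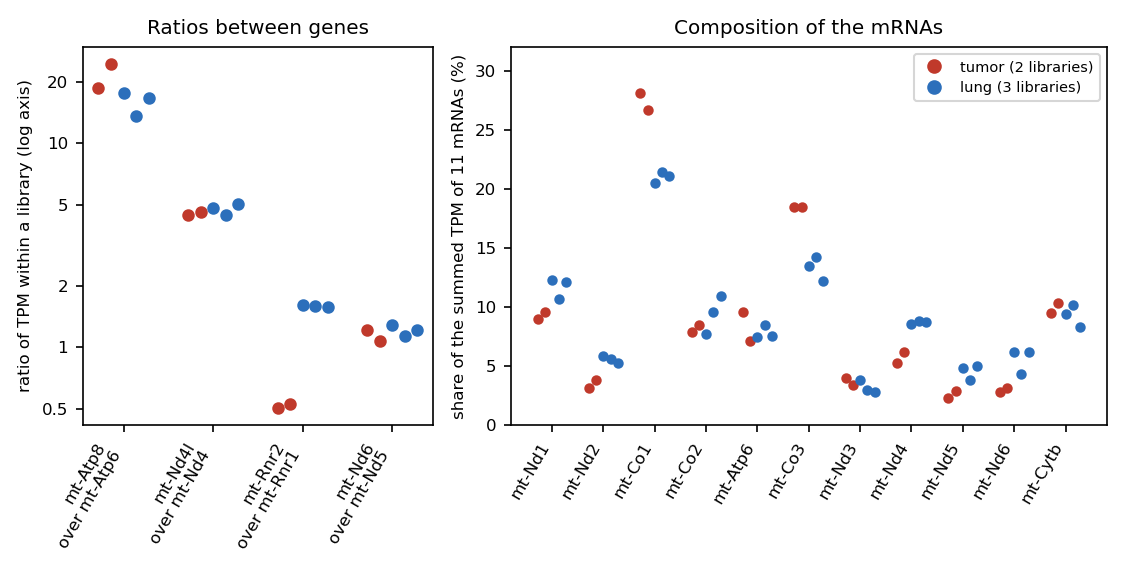
Left, ratio of TPM between 2 genes within each library (log axis); right, share of each mRNA in the summed TPM of 11 mRNAs; tumor red, lung blue, 1 point per library. mt-Rnr2 over mt-Rnr1 lies at 0.507 and 0.529 in tumor and at 1.57 to 1.61 in lung, and mt-Co1 and mt-Co3 take larger shares in tumor.

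The tRNAs carry amino acids to the mitochondrial ribosome, and their values rest on little signal. Of the 22, 4 passed as higher and 0 as lower, against 31.6% and 27.0% of all tested genes. Of those that passed, the filter kept mt-Tt, mt-Ts2 and mt-Tl2 through the tumor libraries alone. Against 10556 of the 16387 tested genes, 6 of the 22 tRNAs had an unadjusted p under 0.05. Listed at 0 in at least 1 library were 11 of them. All 22 had a mean of at least 1 TPM, 3 of them through the tumor libraries alone and mt-Tv through lung library 1 alone (11.7 TPM), so a difference in these 4 was built into the filter. Without lung library 2, 7 tRNAs passed as higher, where 28.1% of all tested genes did, with mt-Td, mt-Tr and mt-Th gained. mt-Td and mt-Tr were listed at 0 in both lung libraries that remained. As lower, mt-Tf passed without tumor library 2 and mt-Tl1 without tumor library 3, each listed at 0 in the tumor library that remained, and mt-Ti passed without lung library 3.

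mt-Tt, mt-Ts2 and mt-Tl2, the tRNAs of threonine, serine and leucine, were listed at 0 in all 3 lung libraries. In tumor mt-Tt was at 42.0 and 51.4 TPM, mt-Ts2 at 25.6 and 44.1 TPM and mt-Tl2 at 40.6 and 83.7 TPM. All 3 passed, but the filter kept them through tumor alone, so their p-values cannot count as support and are not given. Values at 0 in 3 libraries have no spread on the log scale, and the size of the fitted difference depends on the pseudocount, so no fold is given. The values were also coarse. In lung library 3 all 13 values above 0 of tRNAs that share their length with another were whole multiples, within 0.005, of a step of 11.5 to 11.7 TPM, with mt-Tg, mt-Th and mt-Tw at 1 step each. In tumor library 2 the tRNAs of 71 bases were whole multiples of 8.11 TPM, with mt-Tl2 at 5 steps, mt-Tq at 9 and mt-Tn at 21. A step may stand for 1 fragment or for more, which was not tested. Over all libraries such a step was found for 10 of 19 sets of equal length, holding 27 of 67 values.

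mt-Ts1, the serine tRNA behind mt-Co1, was the remaining one that passed. It was at 1729 and 1911 TPM in tumor, against 480.2, 467 and 209 TPM in lung (2.33 ± 0.41, adjusted p = 0.00714). The groups lay far apart, but with 1 tumor library left the call was lost (adjusted p-values of 0.0608 and 0.0551). Its ratio to mt-Co1, chosen after the values were seen, was 0.223 and 0.156 in tumor, against 0.189, 0.152 and 0.124 in lung, so the groups overlapped.

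The summed level of the tRNAs was higher on the minus strand, mainly through mt-Tp and mt-Ts1. Levels of single tRNAs overlapped between the strands. In tumor library 2, mt-Ty of the minus strand was at 49.6 TPM and mt-Ti of the plus strand at 57.3 TPM. Whether quantification used strand is not given. The 8 tRNAs of the minus strand summed to 5309 and 9472 TPM in tumor, against 4515, 4008 and 2043 TPM in lung. The 14 of the plus strand summed to 363 and 722 TPM in tumor, against 409.5, 494 and 266 TPM in lung. mt-Tp, the proline tRNA, alone was at 2939.5 and 6245 TPM in tumor, against 2593, 2181 and 1160.1 TPM in lung (1.19 ± 0.49, adjusted p = 0.0897). mt-Te, the glutamate tRNA, which lies between mt-Nd6 and mt-Cytb on the minus strand, had 173 and 219.9 TPM in tumor and 431, 221 and 139 TPM in lung (-0.28 ± 0.50, adjusted p = 0.648).

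Of the 8 tRNAs that lie between mt-Nd1 and mt-Co1, 4 had lower and 4 had higher means in tumor, and none passed. The 4 lower ones were mt-Ti, mt-Ta, mt-Tm and mt-Tn, and the 4 higher ones mt-Tq, mt-Tw, mt-Tc and mt-Ty. mt-Ti, the isoleucine tRNA, was at 57.3 and 61.6 TPM in tumor, against 140.2, 147 and 69.7 TPM in lung, without overlap (-0.91 ± 0.37, adjusted p = 0.0840). mt-Ta, the alanine tRNA, was at 57.3 and 152 TPM in tumor, against 266, 360.3 and 151 TPM in lung (-1.37 ± 0.56, adjusted p = 0.0857). mt-Tm, the methionine tRNA that also starts translation, was at 32.7 and 118 TPM in tumor, against 81.8, 187 and 81.3 TPM in lung (-0.78 ± 0.67, adjusted p = 0.358). mt-Tn, the asparagine tRNA, had 170.4 and 359.9 TPM in tumor and 463, 284 and 149.7 TPM in lung (-0.12 ± 0.58, adjusted p = 0.864). All 4 of these differences turned positive when libraries were centred on pan-leukocyte genes. That centring moved the median of all tested genes to 3.41, so the turn is not particular to these tRNAs. mt-Th, the histidine tRNA, was at 49.6 and 85.2 TPM in tumor, against 11.8, 0 and 11.7 TPM in lung, and just missed the threshold (adjusted p = 0.0559). The other 11 tRNAs had adjusted p-values from 0.0739 (mt-Tr) to 0.963 (mt-Ty).

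Nuclear genes with mitochondrial roles were taken as 15 lists, which hold 284 genes, of which 279 were tested, and 190 passed as higher and 5 as lower, against 31.6% and 27.0% of all tested genes. Without tumor library 2 these counts were 109 and 3, where 20.3% and 17.7% of all tested genes passed. The lists of transcription, cleavage, tRNA modification, synthetases and translation factors together passed as higher in 39 of 81 genes and as lower in 1. The 5 lower genes were Dna2, Polg2, Tk2, Pde12 and Mrpl33, all of which turned positive when libraries were centred on pan-leukocyte genes. As that centring moved the median of all tested genes to 3.41, the turn is not particular to these genes.

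Of 9 tested transcription genes, 4 passed as higher and 0 as lower (median 0.35), against 31.6% and 27.0% of all tested genes. Fewer of the 9 passed as higher with any library left out, where the share of all tested genes fell as well. Tfam, which packages mitochondrial DNA and starts transcription, was at 23.3 and 20.5 TPM in tumor, against 7.41, 6.78 and 5.99 TPM in lung (1.57 ± 0.17, adjusted p = 0.00202). Polrmt, the mitochondrial RNA polymerase, was at 6.43 and 6.98 TPM in tumor, against 3.01, 1.24 and 3.36 TPM in lung (1.18 ± 0.35, adjusted p = 0.0355). Its call ended without either tumor library (adjusted p-values of 0.148 and 0.155) and without lung library 1 (adjusted p = 0.0548). Tfb2m, the partner of the polymerase at the promoter, had 12.0 and 8.40 TPM in tumor and 6.21, 7.02 and 10.2 TPM in lung (adjusted p = 0.320).

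Of 14 tested genes of DNA replication and upkeep, 6 passed as higher and 3 as lower (median 0.61). Among all tested genes 31.6% and 27.0% did. Fewer of the 14 passed as higher with any library left out, where the share of all tested genes fell as well. Twnk, the replicative helicase, was at 6.37 and 5.93 TPM in tumor, against 1.79, 1.19 and 1.69 TPM in lung (1.49 ± 0.22, adjusted p = 0.00430). Polg2, the accessory subunit of the DNA polymerase, was at 2.30 and 4.95 TPM in tumor, against 12.4, 18.0 and 16.7 TPM in lung (-1.90 ± 0.33, adjusted p = 0.00637). Polg, its catalytic subunit, had 18.3 and 16.7 TPM in tumor and 27.0, 21.2 and 29.3 TPM in lung (-0.53 ± 0.20, adjusted p = 0.0680), and passed as lower without lung library 2 (adjusted p = 0.0400).

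Genes of precursor cleavage, mRNA stability and decay passed as higher in 11 of 20 and as lower in 1 (median 1.03). Among all tested genes 31.6% and 27.0% did. Fewer of the 20 passed as higher without tumor library 2. Hsd17b10, a subunit of mitochondrial RNase P, was at 41.2 and 32.6 TPM in tumor, against 12.1, 10.9 and 9.89 TPM in lung (1.66 ± 0.18, adjusted p = 0.00209). Slirp, which with Lrpprc protects mitochondrial mRNAs, was at 30.6 and 27.7 TPM in tumor, against 9.75, 5.85 and 5.63 TPM in lung (1.93 ± 0.27, adjusted p = 0.00357). Lrpprc was at 10.9 and 12.0 TPM in tumor, against 4.86, 3.13 and 5.63 TPM in lung (1.20 ± 0.26, adjusted p = 0.0134), a call that ended without either tumor library (adjusted p-values of 0.0796 and 0.0848). The RNA-degrading pair Pnpt1 and Supv3l1 passed with differences of 1.60 ± 0.23 (adjusted p = 0.00398) and 0.97 ± 0.25 (adjusted p = 0.0235). The Supv3l1 call ended without either tumor library and without lung library 1 or 2 (adjusted p-values from 0.0557 to 0.130).

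Of 82 mitochondrial ribosomal protein genes, 69 passed as higher and 1 as lower (median 1.48), against 31.6% and 27.0% of all tested genes. In the same libraries their rRNA partners did not pass as higher. Without tumor library 2 fewer of the large and of the small subunit genes passed as higher, and the share of all tested genes fell as well. Mrps5 was at 59.6 and 60.3 TPM in tumor, against 14.1, 8.41 and 8.38 TPM in lung (2.47 ± 0.27, adjusted p = 0.00193). Mrpl33 was the faller, at 83.1 and 77.8 TPM in tumor, against 168, 178 and 128 TPM in lung (-0.95 ± 0.19, adjusted p = 0.0109), and this call ended without either tumor library (adjusted p-values of 0.0564 and 0.0557). Translation factors passed as higher in 6 of 13 and as lower in 0, among them Tufm, the elongation factor that delivers tRNAs (1.85 ± 0.19, adjusted p = 0.00177).

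Aminoacyl-tRNA synthetases, which load each tRNA with its amino acid, passed as higher in 12 of 22 and as lower in 0 (median 0.92), and as higher in 7 without tumor library 2. Kars, which also serves the cytosol, was at 150.7 and 120.7 TPM in tumor, against 22.7, 15.3 and 23.6 TPM in lung (2.68 ± 0.25, adjusted p = 0.00153). Vars2 and Iars2 passed at 2.13 ± 0.26 and 1.49 ± 0.18 (adjusted p-values of 0.00242 and 0.00252). Of the 4 tRNAs that passed, mt-Ts1 and mt-Ts2 have a synthetase that passed, Sars2 (1.27). The synthetases of mt-Tl2 and mt-Tt, Lars2 (0.10) and Tars2 (-0.0079), did not pass. The filter kept mt-Ts2, mt-Tl2 and mt-Tt through tumor alone, so their calls cannot be set against those of their synthetases. Genes of tRNA modification passed as higher in 6 of 17 and as lower in 0 (as higher in 3 without tumor library 2), which is near the 31.6% of all tested genes that passed as higher, or 20.3% without that library. Among them were Gtpbp3, Qtrt2 and Pus1 at 1.52, 2.03 and 1.55. The Qtrt2 and Pus1 calls ended without tumor library 2 (adjusted p-values of 0.0588 and 0.0970).

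The nuclear partners of the mitochondrially encoded subunits passed as higher in 57 of 73 genes of complexes I, III, IV and V and as lower in 0. Their median was 1.14, and 31.6% and 27.0% of all tested genes passed as higher and as lower. By complex these were 27 of 36, 8 of 9, 9 of 11 and 13 of 17, and in complex II, which has no mitochondrially encoded subunit, 1 of 4. Without tumor library 2 fewer passed in each of complexes I, III, IV and V. In complexes III and IV the share then fell to near that of all tested genes in the same setting. Without tumor library 3 complex III also had fewer. Genes of mitochondrial mass and membranes passed as higher in 17 of 19, with Vdac1, the outer membrane channel, at 211 and 173 TPM in tumor, against 24.8, 27.1 and 24.7 TPM in lung (2.86 ± 0.16, adjusted p = 0.000901). Of 6 tested biogenesis regulators Myc alone passed (15.4 and 10.8 TPM in tumor, 4.74, 2.62 and 5.82 TPM in lung, adjusted p = 0.0188), a call that ended without either tumor library (adjusted p-values of 0.138 and 0.0603). The coactivator genes Ppargc1a and Ppargc1b had means under 1 TPM and were not tested.

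**Figure D4:**
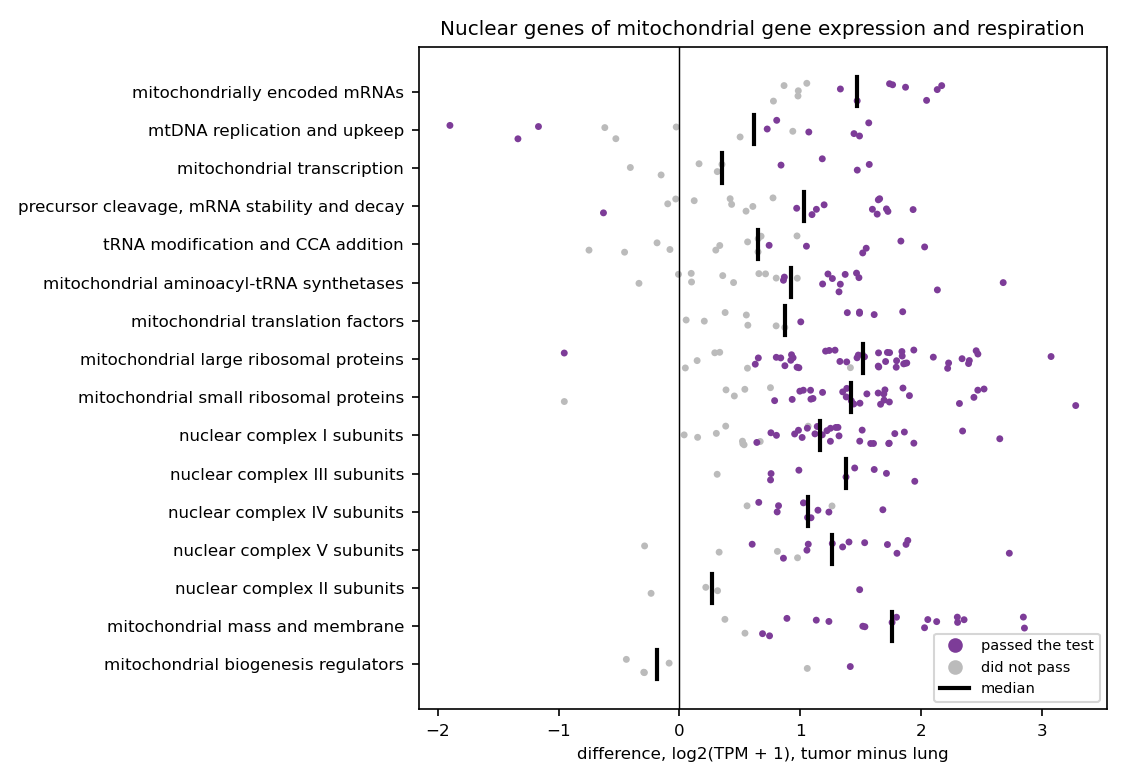
Difference between tumor and lung, log2(TPM + 1), for the 13 mitochondrially encoded mRNAs and for each tested gene of 15 nuclear lists; purple points passed, black bars are medians. Medians run from -0.19 for biogenesis regulators to 1.76 for mitochondrial mass and membrane genes, with 1.47 for the mRNAs. Centred on pan-leukocyte genes, which moved the median of all tested genes to 3.41, the points below 0 named in the text lie above it.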

How the data were processed

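The authors deposited TPM per gene symbol, made with Salmon 0.9.1 on GENCODE mouse M24 transcripts according to the design text; how transcripts were combined is not given in the sources used here. The deposited table holds 55276 rows, of which 26 carry spreadsheet dates as symbols (0.0650% to 0.0826% of TPM) and were left out. The authors' deposited p-values and false discovery rates were used only where named. Groups came from the tissue label and numbers from the titles. No 2 libraries were identical. TPM keeps no depth, so no counting error is given.

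limma 3.58.1 in R 4.3.3, with an intensity trend, was fitted to log2(TPM + 1) of all 5 libraries, two-sided, and tested on simulated data. There, 50 genes each were changed by 1, 2, 4 or 6 on the log2 scale among 16387. Of these, 2%, 44%, 74% and 78% were recovered, so differences near 1 were mostly missed. Far fewer genes were changed there than passed in the real data, so recovery in the real data may differ. Fold differences on this scale understate changes of low genes. The members and lists were chosen with earlier results of these data known. Named genes are the 37 members, up to 3 genes per direction and list with the smallest p, and a fixed set of regulators, of which some are left out of the text. Some ratios and the tRNA steps were chosen after the values were seen. Coordinates and sequences are from GENCODE M21 on GRCm38, matched by symbol for 37 of 37. Alternatives, 17 in all, covered pseudocount, filter, scaling, variance, fold limit, replicate block and each library left out.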

Additional observations from a re-analysis of the deposited data

How the results depend on the processing

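Most results kept their side of the threshold, with these exceptions. Of 13 mRNAs, 5 passed with no filter on low values (without mt-Atp8, mt-Nd1 and mt-Cytb), 13 when libraries were centred on pan-leukocyte genes, 0 under a replicate block by title number, which ended all 8 calls (adjusted p-values of 0.0600 to 0.128), and 1 to 7 with each library left out. Centring moved the median of all tested genes to 3.41 and that of the mRNAs to 4.86: 2 rRNAs passed as higher and 0 as lower, 20 tRNAs, and 13339 genes as higher and 73 as lower. Rescaling without mt- rows moved that median to 0.13. With libraries left out, tRNAs passing as higher numbered 3 to 7 and as lower 0 to 1, all genes 3314 to 4817 higher and 2900 to 4134 lower, and nuclear genes of the lists 109 to 179 higher and 3 to 6 lower. Of the latter 3 were lower with a 5 TPM filter and 0 when centred. Causes were not tested.

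With 2 pairs the libraries share only a number: same-numbered libraries deviated from their group means with correlations of 0.0034 and 0.083. Under the block 0 rRNAs passed as lower (mt-Rnr2 -1.56, adjusted p = 0.0683), 3662 genes were higher and 3449 lower, and differences turned for mt-Rnr1 (0.051), mt-Tq (-0.12), mt-Tn (0.26), mt-Ty (-0.19) and mt-Te (0.15).

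Directions also turned, when centred, for mt-Tf (1.09), mt-Rnr1 (3.38), mt-Tv (2.17), mt-Rnr2 (1.76), mt-Tl1 (0.98), mt-Ti (2.48), mt-Tm (2.62), mt-Ta (2.02), mt-Tn (3.27), mt-Te (3.12), Dna2 (2.06), Polg2 (1.49), Tk2 (2.23), Pde12 (2.76), Mrpl33 (2.44) and Polg (2.87). Rescaling without mt- rows turned mt-Rnr1 (0.12) and mt-Tn (0.0069), and without mt-Atp8 turned mt-Rnr1 (0.064). With a library left out, differences crossed 0 for mt-Tf (-5.00 to 0.40), mt-Rnr1 (-0.51 to 0.49), mt-Tl1 (-5.34 to 0.53), mt-Tq (-0.31 to 0.71), mt-Tm (-1.69 to 0.14), mt-Tn (-0.66 to 0.41), mt-Tc (-0.057 to 0.93), mt-Ty (-0.97 to 1.05), mt-Tk (-1.23 to 2.96), mt-Tg (-1.22 to 4.22) and mt-Te (-0.66 to 0.15). None of these passed in the main setting except mt-Rnr2 and the nuclear genes other than Polg. The 4 ratios kept their sign in every setting run.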
